A study of Enchytraeus crypticus with 9 samples.

Results

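The gene probes described here changed their signal in *Enchytraeus crypticus* worms given the lower dose of UV radiation and stayed near the unexposed level in worms given the higher dose. They numbered 75 of the 27935 gene probes with a usable signal on every array (0.268%), namely 52 that rose and 23 that fell. The level of a probe was the log2 processed intensity minus the median of its array over those 27935 probes, so that 0 is the median probe of an array and a difference of 1 is a doubling. A member had its 3 UV Dose 1 values all above or all below the values of the other 6 arrays, a mean difference of UV Dose 1 from Control of at least 1 in size, and a mean difference of UV Dose 2 from Control under 0.5 in size. The members were thus chosen by their levels on all 9 arrays and by both differences, and the levels of the members are given as a description without a test.

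The study exposed adult worms in reconstituted water for 5 days. UV Dose 1 worms received 7500 J/m² of UV radiation, UV Dose 2 worms received 8100 J/m², and Control worms stayed under laboratory light with no UV. Each group had 3 arrays, and each array received Cy3-labelled RNA from a separate pool of 40 whole worms, so that fewer cells of a type and less RNA per cell cannot be told apart. The labels of the UV Dose 2 arrays disagree in 1 field, where the source text speaks of dose 1 next to 8100 J/m², and their titles and treatment fields were followed. The UV lamp emitted UVB and UVA, delivered in short daily exposures behind a sheet that removed UVC.

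*E. crypticus* is a small, pale oligochaete of the soil (a potworm) that is used in standard ecotoxicity tests and normally lives away from sunlight. UVB is absorbed by DNA and joins neighbouring pyrimidine bases into dimers, while UVA acts mainly through reactive oxygen species. Animal cells answer such damage with nucleotide excision repair, arrest of the cell cycle, antioxidant enzymes and, when damage persists, cell death. The probes carry the IDs of assembled contigs or of single sequencing reads with no gene names, so no member could be assigned to any of these responses. Of the rises, 22 of 52 (42.3%) were contigs and the rest reads, against 14 of 23 falls (60.9%) and 50.5% of all 27935 kept probes.

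Both groups of members were dim. The mean level over the 9 arrays was below the array median in 49 of 52 rises and in 21 of 23 falls, with medians of -2.33 in each set, against -0.05 over all kept probes. A signal well above background, a stricter flag of the scanning software, was set on all 9 arrays for 10 rises (19.2%) and 9 falls (39.1%), against 70.5% of all kept probes. On the linear scale, the processed intensity of the median rise was 22.7 at UV Dose 1, 8.01 at UV Dose 2 and 8.81 in Control. The median fall had 6.85 at UV Dose 1, 10.72 at UV Dose 2 and 15.96 in Control. The median of all kept probes was 52.2, 48.6 and 57.8 in the same 3 groups. The mean intensities of UV Dose 1 and Control differed by less than 10 units in 22 of 52 rises and 11 of 23 falls, and in 12848 of all 27935 kept probes, so that this count does not set the members apart. For scale, the SD of the 153 negative-control spots was 1.39 to 4.65 units on the UV Dose 1 and UV Dose 2 arrays, and 11.1, 20.97 and 1.16 units on Control replicates 1, 2 and 3. It was also taken without 4 spots in the last rows of the grid, described next. It was then 2.51, 1.45 and 1.97 units on UV Dose 1 replicates 1, 2 and 3. On Control replicates 1, 2 and 3 it was 11.3, 11.6 and 1.14 units. These 4 spots moved it by over 1.5 times on UV Dose 1 replicates 2 and 3 and Control replicate 2. In the other rows, the highest spot read 104.2 units on Control replicate 1 and 105.6 on Control replicate 2. The medians there were -3.42 and -5.41, so such bright spots weigh on these SDs.

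The rises were placed unevenly on the array grid. The grid had 532 rows, and 23 of 52 rises (44.2%) lay in its last 16 rows, numbered 517 to 532, where 789 of the 27935 kept probes (2.82%) lay. The last 4 rows alone held 20 rises among 173 kept probes (11.6%), against 29 rises among the 27146 kept probes of rows 1 to 516 (0.107%). None of the 23 falls lay in the last 16 rows. The rule picked probes there more often in its first step as well, since 17.9% of the kept probes in the last 4 rows had the 3 UV Dose 1 arrays above the other 6, against 0.91% in rows 1 to 516. Over the whole grid, 289 kept probes (1.03%) had them above the other 6 and 569 (2.04%) had them below. This strip of rows was chosen after the values were seen.

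**Figure D1:**
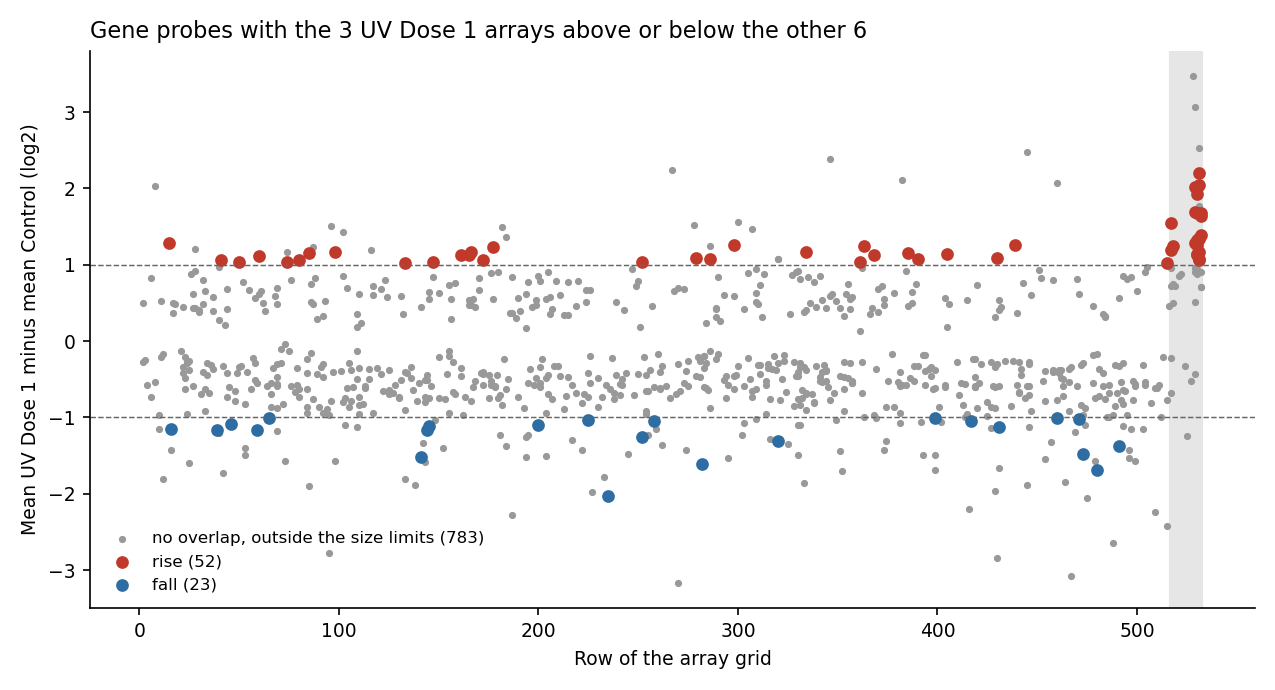
Mean UV Dose 1 minus mean Control (log2) against the row of the array grid, for the gene probes that kept the 3 UV Dose 1 arrays apart from the other 6. Red points are the 52 rises, blue points the 23 falls, grey points did not meet the size limits, dashed lines mark differences of 1 and -1, and the grey band marks rows 517 to 532, which hold 23 of the rises and none of the falls.

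The strip was raised on 3 arrays, which the file headers place on the same slide: UV Dose 1 replicates 2 and 3 and Control replicate 2. Other spots, which the rule did not use, show it. They include 328 gene probes of the strip that failed the signal filter, whose median background-subtracted intensity was 1.70, 21.8 and 11.9 on UV Dose 1 replicates 1, 2 and 3, then 1.202, 0.366 and 0.830 on UV Dose 2 replicates 1, 2 and 3, and 1.43, 32.2 and 1.77 on Control replicates 1, 2 and 3. In rows 1 to 516 the 15487 probes of that kind had medians of 3.45, 1.55 and 2.12 on the UV Dose 1 arrays, 2.36, 1.68 and 2.39 on the UV Dose 2 arrays, and 1.90, -0.609 and 3.104 on the Control arrays. They also include the 4 negative-control spots of the strip, which had medians of -3.14, 10.5 and 6.98 on the UV Dose 1 arrays, -2.64, -3.28 and -1.04 on the UV Dose 2 arrays, and -3.27, 92.5 and -1.003 on the Control arrays. The 149 negative-control spots of the other rows had medians between -5.41 and -1.91 on the 9 arrays.

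Within the strip the raised arrays did not share a profile. In the last 4 rows, the 86 gene probes that failed the filter had median intensities of 1.96, 27.2 and 12.6 on UV Dose 1 replicates 1, 2 and 3, against -0.310 to 1.24 on the UV Dose 2 arrays and 1.08, 8.55 and 1.69 on Control replicates 1, 2 and 3. In rows 525 to 528, where no rise lay, Control replicate 2 was the highest at 133.2, with 51.4 and 26.8 on UV Dose 1 replicates 2 and 3. The local background measured around the spots was not raised, with a median of 30.5 to 33.2 units on the UV Dose 1 arrays in the strip and 32.0 to 35.0 elsewhere, and 31.0 units on Control replicate 2 against 32.5 elsewhere. The part of the raised strip in the rises was not tested, and the rises inside and outside it are given apart.

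**Figure D2:**
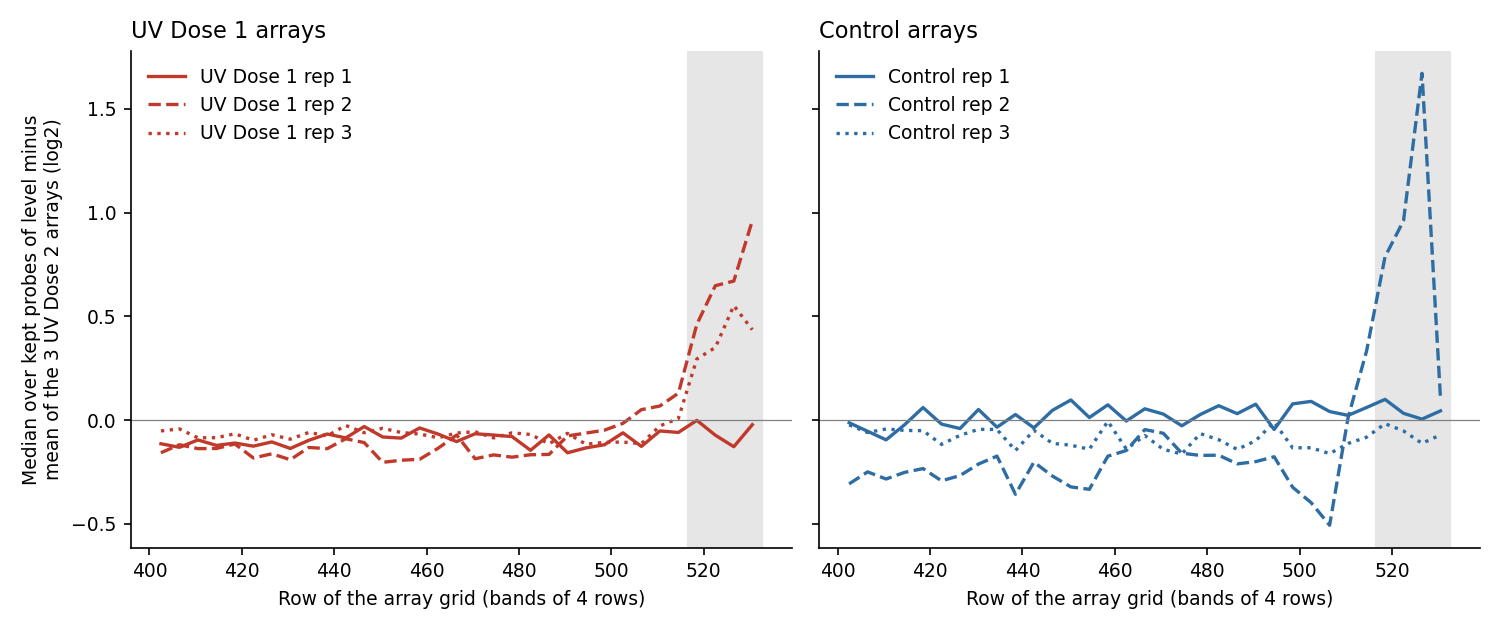
Median level of kept probes minus the mean of the 3 UV Dose 2 arrays (log2), in bands of 4 rows towards the end of the grid, for the UV Dose 1 arrays (left) and the Control arrays (right). UV Dose 1 replicates 2 and 3 and Control replicate 2 climb in the grey band of rows 517 to 532, Control replicate 2 returns towards the others in the last 4 rows, and the remaining arrays stay near 0.

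The 23 rises of the strip differed from Control by 1.07 to 2.20, with a median of 1.35, and from UV Dose 2 by 0.84 to 2.52, with a median of 1.51. Their median levels were -1.78, -0.10 and -1.18 on UV Dose 1 replicates 1, 2 and 3, then -2.44, -2.94 and -2.81 on UV Dose 2 replicates 1, 2 and 3, and -2.59, -2.26 and -2.63 on Control replicates 1, 2 and 3. UV Dose 1 replicate 2 was the highest of the 3 UV Dose 1 arrays in 22 of the 23, and UV Dose 1 replicate 1, which was on another slide, the lowest in 20. Over all 789 kept probes of the strip, replicate 2 was the highest of them in 476 and replicate 1 the lowest in 571. The SD among the UV Dose 1 arrays had a median of 0.66 for the 23 rises, against 0.43 for all kept probes of the strip and 0.32 for the rises of the other rows. The 23 took in the 15 largest rises, and all 4 differences of 2 or more. A signal well above background on all 9 arrays was present in 3 of them.

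The 29 rises of rows 1 to 516 were spread over the grid and were smaller. They differed from Control by 1.02 to 1.28, with a median of 1.12, and from UV Dose 2 by 0.54 to 1.51, with a median of 0.88. Their median levels were -1.52, -1.98 and -1.59 on UV Dose 1 replicates 1, 2 and 3, then -2.32, -2.59 and -2.72 on UV Dose 2 replicates 1, 2 and 3, and -2.51, -3.15 and -2.52 on Control replicates 1, 2 and 3. The UV Dose 1 arrays were closer to each other here, and each of them was the highest for some probes (13, 7 and 9 for replicates 1, 2 and 3). Control replicate 2 was the lowest of the other 6 arrays in 18 of the 29, and in 10090 of all 27935 kept probes. One rise, in row 515, lay next to the strip. Its lowest UV Dose 1 array stood 0.54 above the other 6, the widest such distance of the 29. In rows 511 to 516, probes that failed the filter had medians of 9.69 (Control replicate 2) and 5.89 (UV Dose 1 replicate 2). The remaining arrays had 1.34 to 2.56 there.

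Only 7 of these 29 had a signal well above background on all 9 arrays. The brightest, in row 286, had levels of 2.78, 3.18 and 2.64 at UV Dose 1, 1.76, 2.35 and 2.36 at UV Dose 2, and 1.27, 2.44 and 1.65 in Control. UV Dose 1 replicate 3 and Control replicate 2 were separated there by 0.20, and Control replicate 1 was the lowest array. This probe was chosen after its values were seen. The gap between the lowest UV Dose 1 array and the highest of the other 6 had a median of 0.14 over the 29, and it was under 0.1 in 6 of them.

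**Figure D3:**
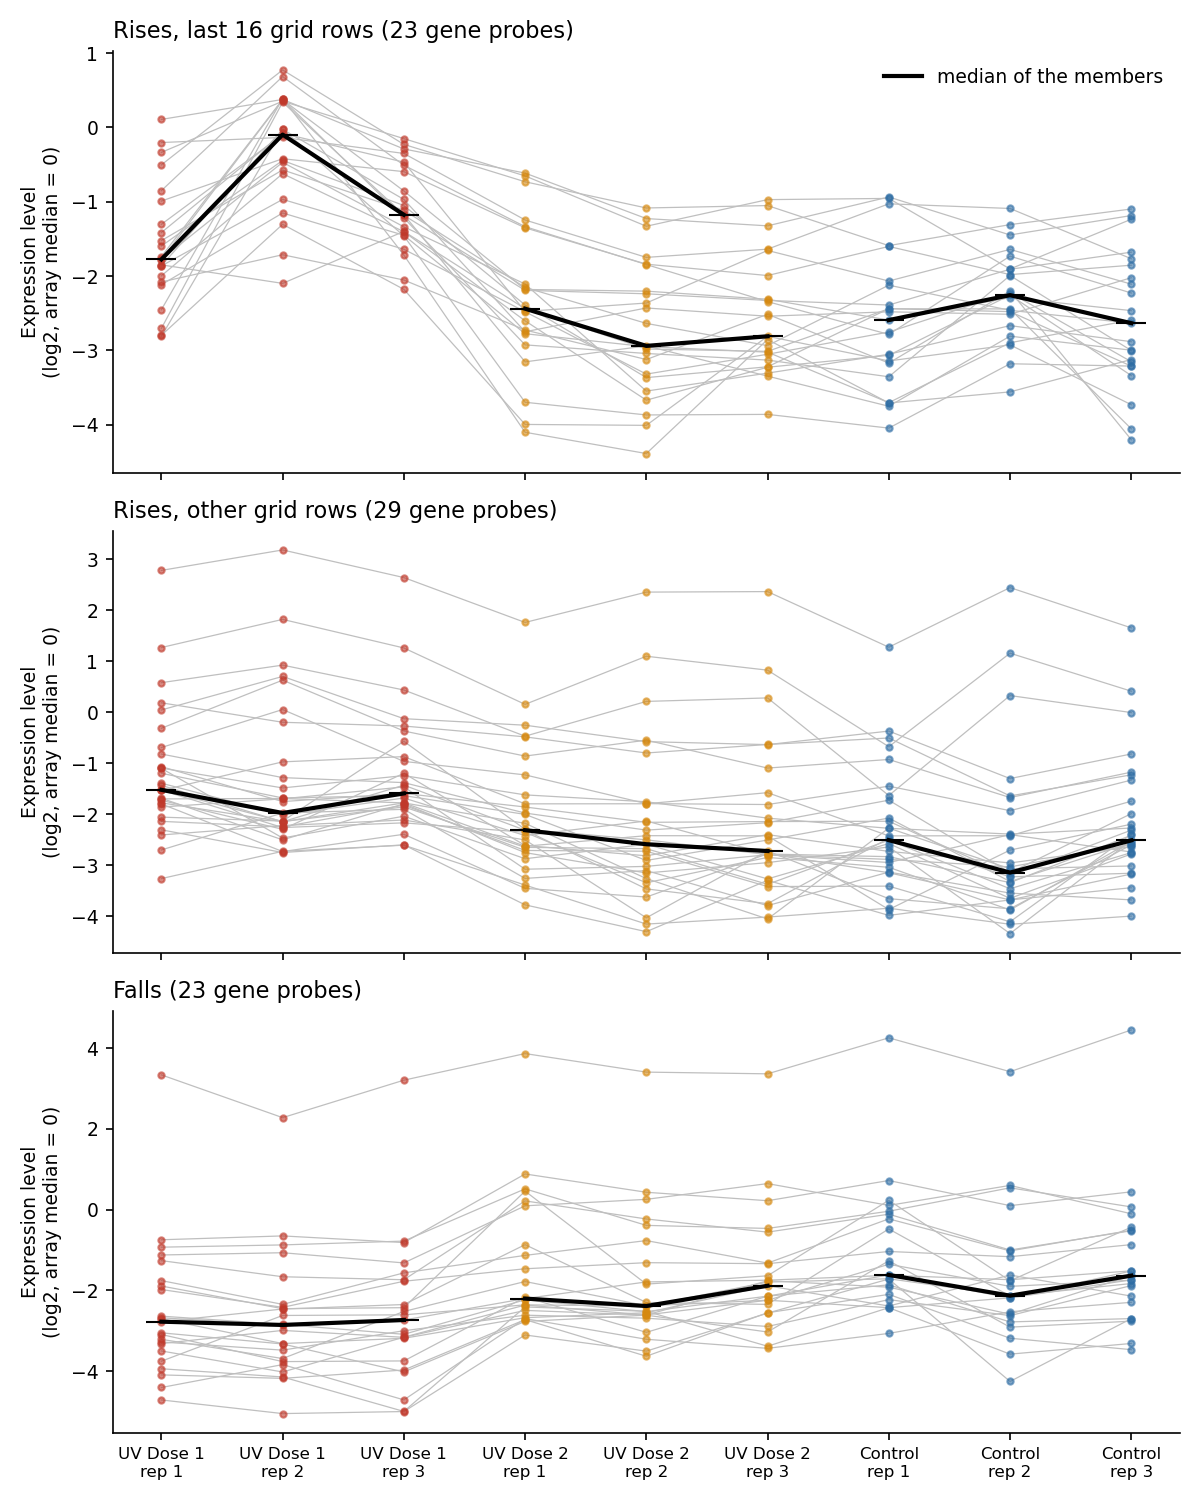
Expression level (log2, array median at 0) of every member on the 9 arrays, for the 23 rises of grid rows 517 to 532 (top), the 29 rises of rows 1 to 516 (middle) and the 23 falls (bottom). Points and grey lines are single gene probes and black bars join the medians of the members on each array. In the top panel the UV Dose 1 arrays are spread widely, with replicate 2 the highest at a median of -0.10. In the other panels they are less spread, with a median SD of 0.32 in each, against 0.28 over all kept probes.

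The 23 falls were spread over rows 16 to 491. As measured, they differed from Control by -2.03 to -1.01, with a median of -1.15, and from UV Dose 2 by -1.87 to -0.52, with a median of -0.87, although 11 of the 23 have only a bound on their size. Their median levels were -2.78, -2.86 and -2.74 on UV Dose 1 replicates 1, 2 and 3, then -2.20, -2.39 and -1.89 on UV Dose 2 replicates 1, 2 and 3, and -1.62, -2.13 and -1.64 on Control replicates 1, 2 and 3. The 3 UV Dose 1 medians lay close together and below all others, while the UV Dose 2 and Control medians overlapped. The median gap between the highest UV Dose 1 array and the lowest of the other 6 was 0.26, and it was under 0.1 in 6 falls.

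In 11 falls none of the UV Dose 1 arrays gave a signal well above background, so their size has only a bound, taken against the dimmest level that counted as well above background on each array. For 10 of these 11 the bound lay above 1, and Control was at least 1.12-fold to at least 2.19-fold higher than UV Dose 1. For 10 of the 11, UV Dose 2 was at least 1.01-fold to at least 1.79-fold higher than UV Dose 1. Among the rises, 5 had no Control array well above background, and for 4 of them UV Dose 1 was at least 1.58-fold to at least 2.00-fold higher than Control. A further comparison with UV Dose 2 gave bounds for 10 rises, of at least 1.12-fold to at least 4.29-fold.

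The rise with the largest measured difference from Control was GYUW2K402IR7O4, a read with its probe in row 531, inside the strip. Its levels were -2.45, 0.39 and -1.72 at UV Dose 1, -4.10, -4.39 and -2.85 at UV Dose 2, and -3.71, -3.56 and -3.12 in Control. UV Dose 1 replicate 2 stood far above the other UV Dose 1 arrays, and the groups did not overlap, as the rule required. The means were -1.26 ± 1.47 at UV Dose 1, -3.78 ± 0.82 at UV Dose 2 and -3.46 ± 0.30 in Control (SD, n = 3 each), a difference of 2.20 from Control and 2.52 from UV Dose 2. Without UV Dose 1 replicate 2 the difference from Control was 1.38. The signal was well above background on all 3 UV Dose 1 arrays, on 1 UV Dose 2 array and on 1 Control array.

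Among rises well above background on all 9 arrays, GYUW2K401B7KXX had the widest gap. This read also had its probe in row 531. Its levels were -0.20, -0.13 and -0.35 at UV Dose 1, -1.25, -1.75 and -1.64 at UV Dose 2, and -1.03, -1.09 and -1.77 in Control. The UV Dose 1 arrays of both slides lay close together, and the lowest of them exceeded the nearest other array by 0.68. Its processed intensities were 40.1 to 47.3 units at UV Dose 1 and 14.7 to 28.8 units on the other arrays. In the last 4 rows, gene probes that failed the filter had median intensities of 1.96, 27.2 and 12.6 on the UV Dose 1 arrays. The part of the raised strip in this difference was not tested. The means were -0.23 ± 0.11 at UV Dose 1, -1.54 ± 0.26 at UV Dose 2 and -1.29 ± 0.41 in Control (SD, n = 3 each), so that UV Dose 1 was 2.09-fold above Control and 2.49-fold above UV Dose 2.

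The fall with the largest measured difference from Control was GYUW2K402HBWRK, a read with its probe in row 235, although its size has only a bound. Its levels were -4.72, -5.05 and -5.00 at UV Dose 1, -3.11, -3.51 and -2.56 at UV Dose 2, and -1.72, -4.26 and -2.70 in Control. The Control arrays were spread widely, with replicate 2 nearest to UV Dose 1. The processed intensities behind these levels were 1.51 to 2.07 units at UV Dose 1, 4.66 to 7.72 at UV Dose 2 and 3.20 to 13.6 in Control. No UV Dose 1 array was well above background, so that Control was at least 1.14-fold and UV Dose 2 at least 1.01-fold higher than UV Dose 1. These bounds are near the lowest among the falls and below the fold of falls measured on every array, so its rank by size is not established.

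The fall with the widest gap among those well above background on all 9 arrays was GYUW2K401EUFCE, a read with its probe in row 491. Its levels were -1.12, -1.07 and -1.32 at UV Dose 1, 0.09, 0.26 and 0.65 at UV Dose 2, and 0.10, 0.60 and -0.10 in Control. The UV Dose 2 and Control arrays were intermixed, and every UV Dose 1 array lay at least 0.97 below the nearest of them. The means were -1.17 ± 0.13 at UV Dose 1, 0.33 ± 0.28 at UV Dose 2 and 0.20 ± 0.36 in Control (SD, n = 3 each). Control was 2.59-fold and UV Dose 2 was 2.83-fold higher than UV Dose 1.

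**Figure D4:**
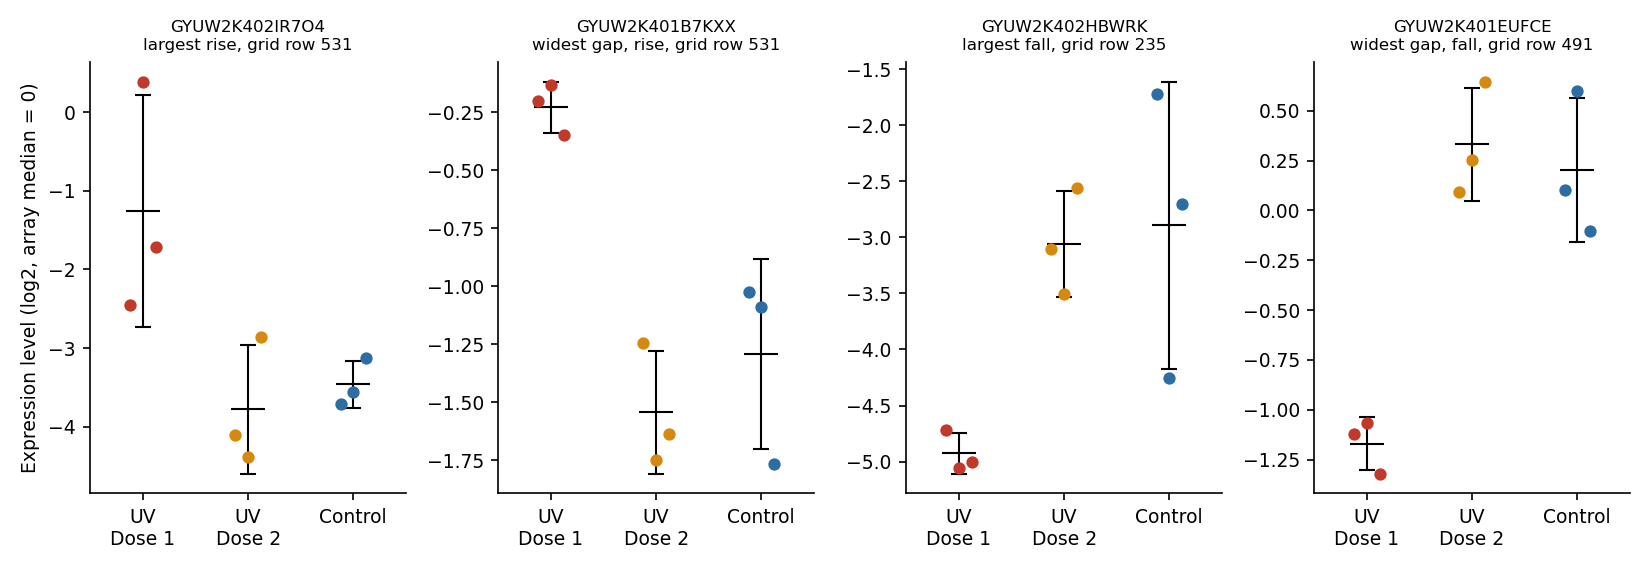
Expression levels (log2, array median at 0, a separate scale in each panel) of 4 members by group. They are the rise with the largest measured difference, the rise with the widest gap, the fall with the largest measured difference and the fall with the widest gap. Points are arrays and black bars the mean ± SD of 3 arrays. In the third panel the 3 UV Dose 1 arrays lie between -5.05 and -4.72 while the Control arrays run between -4.26 and -1.72, and in the fourth panel the 3 UV Dose 1 arrays lie between -1.32 and -1.07 with all 6 others at -0.10 or above.

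At UV Dose 2 the members were on both sides of Control. Of the rises of rows 1 to 516, 24 of 29 had a UV Dose 2 mean above Control, with a median difference of 0.28, and of the falls 19 of 23 had a UV Dose 2 mean below Control, with a median difference of -0.35. Of the rises of the strip, 10 of 23 were above Control at UV Dose 2, with a median difference of -0.17. Over all kept probes the median difference of UV Dose 2 from Control was 0.14. Both differences are taken from the same Control arrays, and the limit of 0.5 was part of the rule, so nothing is read from these signs. The 3 UV Dose 2 arrays lay above all 3 Control arrays in 2 rises and below them in 2 falls, where 16.8% and 8.73% of all kept probes did so.

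The slides allowed comparisons within a slide. On the slide that held UV Dose 1 replicates 2 and 3 and Control replicate 2, the rises of the strip exceeded the Control array by 0.32 to 2.89 (median 1.58), and the rises of the other rows by 0.35 to 2.19 (median 1.47). The falls differed from it by -1.79 to -0.27 (median -0.89). On the slide that held UV Dose 1 replicate 1 and the 3 UV Dose 2 arrays, the rises of the strip exceeded the UV Dose 2 mean by 0.44 to 1.40 (median 0.96), and the rises of the other rows by 0.19 to 1.81 (median 0.88). The falls differed by -1.66 to -0.21 (median -0.94). The rule fixed the signs of all these differences. A difference of at least 1 in size was present on the first slide in 43 of 52 rises, 7 of 23 falls and 4443 of all 27935 kept probes, and on the second slide in 21 of 52 rises, 11 of 23 falls and 1280 of all kept probes. Control replicates 1 and 3 were each alone on a slide. No slide held both UV Dose 2 and Control arrays, and in the file headers each slide had its own scan date. In the UV Dose 2 minus Control difference, which the rule used, dose cannot be told apart from slide and scan.

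In the fit across all kept probes (limma with Benjamini-Hochberg adjustment, two-sided, adjusted p under 0.05), UV Dose 1 against Control called 974 probes (3.49%), 371 higher (1.33%) and 603 lower (2.16%), or 38.1% higher. Among the members it called 8 of 52 rises, 6 of them in the strip, and 9 of 23 falls, GYUW2K401EUFCE included. This contrast chose the members, and nothing is read from these counts or from those under the other settings below. The number called over all probes also moved, and was 319 to 771 with single arrays left out. In limma, 5243 probes had an unadjusted p under 0.05 in the main fit. There were 6980 with the replicate number as a block and 5926 with the slide as a random block. With the replicate number as a block, a pairing of UV Dose 1 and Control that is not settled, 29 members were called in place of 17. With the slide as a fixed block it called no member and 14 probes in all, where 4429 had an unadjusted p under 0.05, and with the slide as a random block it called 20 members. With the strip left out of the data it called 14 of the remaining 52 members. The number called over all probes is not given for the random slide block or the left-out strip. Those member counts thus stand without a share of all probes. Leaving out UV Dose 1 replicate 1, 2 or 3 gave 4, 5 and 1 members called, leaving out UV Dose 2 replicate 1, 2 or 3 gave 11, 4 and 5, and leaving out Control replicate 1, 2 or 3 gave 5, 6 and 2.

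Between UV Dose 1 and UV Dose 2 limma called 0 of the 27935 probes, and so 0 members (0%), while 925 probes had an unadjusted p under 0.05. The smallest adjusted p of limma was 0.185. The methods' t-test gave 1703 probes before adjustment and 0 after it. UV Dose 1 against the mean of both other groups called 6 probes (0.0215%), none of them a member, with 2622 at an unadjusted p under 0.05. All 6 were lower at UV Dose 1, and their UV Dose 2 means were also below Control, with differences of -4.68 to -2.77. UV Dose 2 against Control called 1197 probes (4.28%), 722 higher (2.58%) and 475 lower (1.7%), and no member, as the rule requires small differences there. That the members differed between the doses therefore rests on the rule and not on a test that passed.

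The limits of the rule cut through a continuous range. The smallest rises inside the limit of 1 differed from Control by 1.02, 1.02 and 1.03, and the nearest outside it by 0.97, 0.97 and 0.96. The falls next to the limit were at -1.01, -1.01 and -1.01 inside and at -0.99, -0.99 and -0.97 outside. For UV Dose 2, the rises nearest to the limit of 0.5 were at 0.50, 0.49 and 0.49 inside and at 0.50, 0.51 and 0.53 outside, and the falls at -0.50, -0.49 and -0.49 inside and at -0.51, -0.51 and -0.53 outside. The limit on UV Dose 2 turned away 24 probes that rose at UV Dose 1 by at least 1 and 85 that fell by as much.

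Membership depended on how the arrays were scaled. SVCD normalization, which scales group averages on no-variation genes only, gave 30 rises and 17 falls, of which 26 and 10 were the same probes as with median scaling. It put the median UV Dose 1 minus Control difference of all kept probes at -0.03, against 0.09 with median scaling. Over median, SVCD, Quantile and 75th percentile scaling and no normalization, 13 rises met the rule every time, 8 of them in the strip, and 6 falls did. With the strip left out of the data, 31 rises and 17 falls were found, 29 and 17 of them among the members.

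The list changed when single arrays were left out. The rule then has fewer arrays to keep apart, so part of a growth in number follows by construction. Without UV Dose 1 replicate 1, 2 or 3 there were 104, 322 and 78 rises, of which 41, 38 and 46 were members, and 63, 67 and 48 falls, of which 20, 17 and 17 were members. Without UV Dose 2 replicate 1, 2 or 3 there were 62, 55 and 54 rises, of which 42, 45 and 44 were members, and 29, 40 and 37 falls, of which 15, 20 and 17 were members. Without Control replicate 1, 2 or 3 there were 58, 97 and 49 rises, of which 35, 27 and 33 were members, and 17, 50 and 18 falls, of which 13, 10 and 14 were members. Fewest members were left without Control replicate 2. The share in the strip moved with the array, since 63 of the 104 rises without UV Dose 1 replicate 1 and 59 of the 97 without Control replicate 2 lay there, against 19 of the 322 without UV Dose 1 replicate 2.

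**Figure D5:**
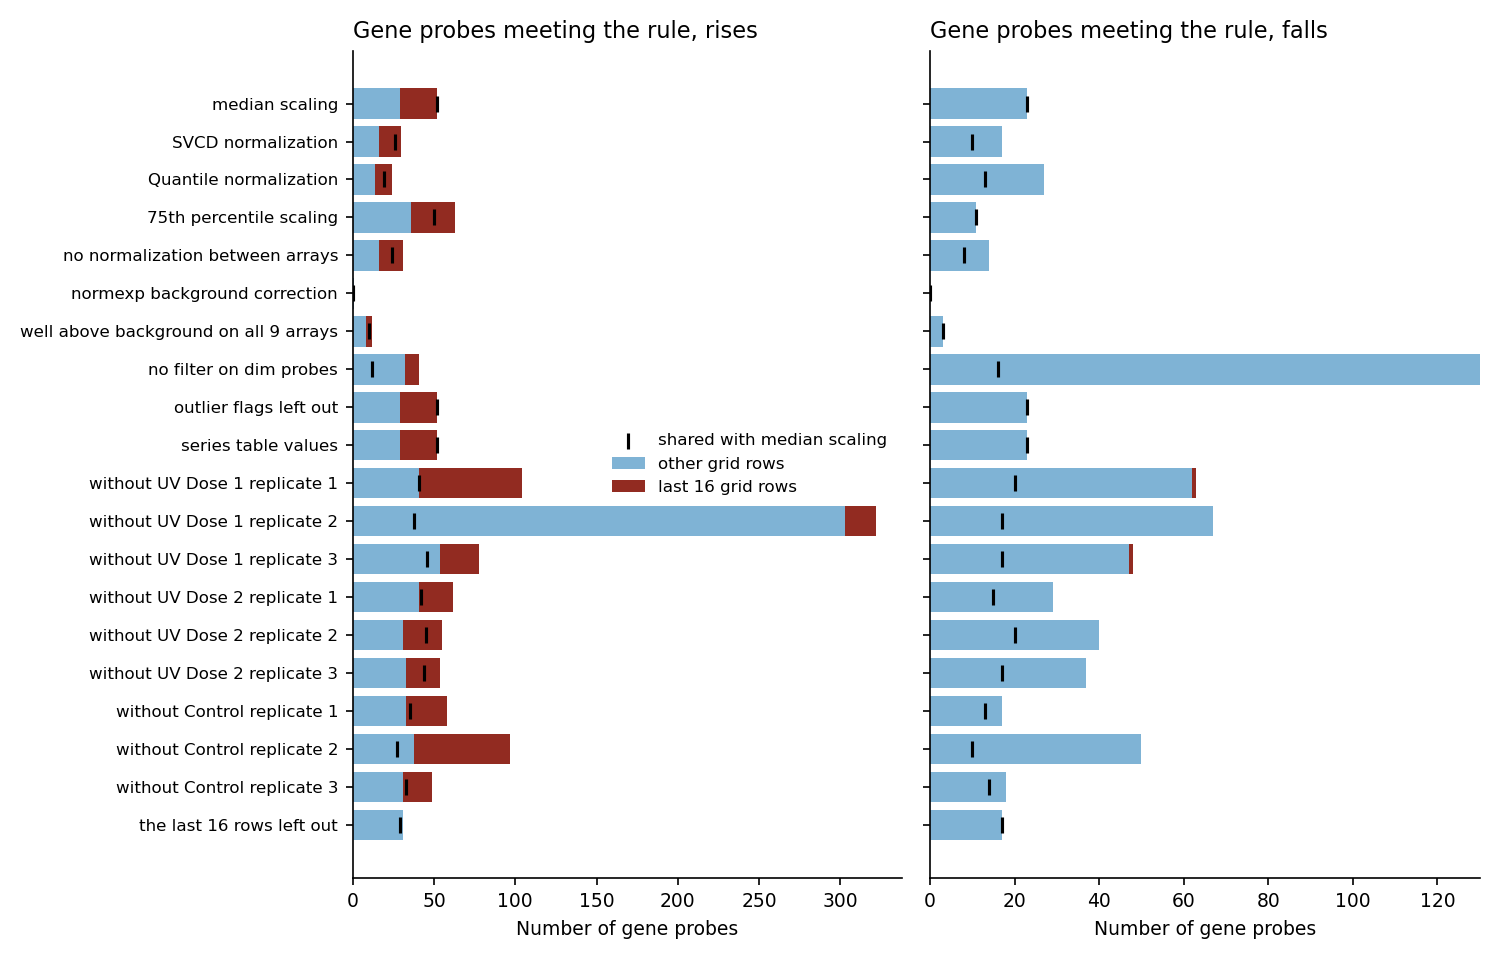
Number of gene probes that met the rule as rises (left) and falls (right) under each setting, with the part in grid rows 517 to 532 in dark red and the number shared with median scaling as a black tick. Rises run between 1 with normexp background correction and 322 without UV Dose 1 replicate 2, and falls between 0 with normexp and 130 with no filter on dim probes.

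Under all 5 scalings and with each array left out, 5 rises and 2 falls met the rule every time. Of the rises, 3 lay in the strip and 2 in rows 405 and 439, and no UV Dose 2 or Control array measured these 2 well above background. The rise in row 439 had levels of -2.70, -1.98 and -1.91 at UV Dose 1, -3.26, -3.11 and -3.80 at UV Dose 2, and -3.14, -3.55 and -3.68 in Control. The falls were GYUW2K401EUFCE and a probe in row 144, both well above background on all 9 arrays. The probe in row 144 had levels of -0.75, -0.65 and -0.82 at UV Dose 1, 0.88, 0.43 and 0.22 at UV Dose 2, and 0.72, 0.10 and 0.44 in Control, so that its UV Dose 1 arrays lay 0.75 or more below the others. The probes in rows 439 and 144 were singled out after their values were seen. A member chosen on all 9 arrays largely keeps its separation when an array is left out. There mainly the size limits could remove it, so nothing is read from a member staying. Normexp background correction was not among these settings, and it kept 0 of the members.

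The same rule with the doses exchanged found 76 probes changed at UV Dose 2 only, 57 rises and 19 falls, a number close to the 75 of UV Dose 1. The strip held 1 of those 57 rises and 7 of those 19 falls, against 23 of 52 rises and 0 of 23 falls at UV Dose 1. No UV Dose 2 array was on the slide whose strip was raised.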

How the data were processed

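The authors labelled RNA with Cy3, hybridized it to 9 custom Agilent arrays and, per the file headers, ran Feature Extraction 10.7.3.1. The deposited intensity values are the software's background-subtracted processed signals on a linear scale, not normalized between arrays, and the flags and grid positions (other values) come from the same deposited files. Each array had 45167 spots, 43750 of them gene probes. Kept probes were flagged by the software as positive and significant on all 9 arrays, and 29844 to 39849 gene probes per array carried that flag. Identical intensities made up at most 0.00229% of the gene probes for any pair of arrays. The 3 arrays per group limit the precision of every value.

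The members and lists were chosen with earlier results of these data known. Median scaling followed the rule of the set. limma 3.58.1 (lmFit and eBayes, R 4.3.3) was fitted to all 9 arrays with group means as terms, and checked on simulated data. In each direction the member with the largest difference from Control was named, and, among members well above background on all 9 arrays, the one with the widest gap.

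Replicate numbers recur in each group. Deviations of same-numbered arrays from their group means correlated at 0.21, 0.49 and 0.12 between UV Dose 1 and Control and at 0.55, 0.27 and 0.29 between UV Dose 2 and Control, but at 0.09, 0.18 and 0.03 between the doses. Differently numbered arrays correlated at -0.45 to 0.34 between UV Dose 1 and Control and at -0.38 to 0.18 between UV Dose 2 and Control. Between the doses they correlated at -0.24 to 0.11. UV Dose 1 replicate 1 correlated more with Control replicate 3 (0.34) than with Control replicate 1 (0.21). Whether the numbers mark pairs is thus not settled. The labels do not say what a number marks, and UV Dose 1 and Control replicate 2 also shared a slide. Alternatives covered scaling, background correction (normexp, offset 50), filters, thresholds, blocks and left-out arrays. Leaving out rows 517 to 532, and, for the members called, the random slide block and some scalings and filters, were added after the data were seen.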

Additional observations from a re-analysis of the deposited data

Results flagged for a closer look

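A signal well above background on all 3 UV Dose 1 arrays and on none of the other 6 was present for 8 gene probes, most of them outside the comparisons because 5 failed the signal filter. Their processed intensities were between 6.84 and 52.5 units on the UV Dose 1 arrays, with a highest value of 13.2 units on the UV Dose 2 and Control arrays, and in 1 of the 8 the intensities of the groups overlapped. Of these 8, 2 were members of the set, both rises, and 1 lay in rows 517 to 532 of the grid. In the opposite direction, 1 gene probe was well above background on all 6 other arrays and on no UV Dose 1 array.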

How the results depend on the processing

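Rises and falls, 52 and 23 with median scaling, numbered 30 and 17 with SVCD, 24 and 27 with Quantile, 63 and 11 with 75th percentile scaling, and 31 and 14 with no normalization. They were 1 and 0 with normexp, none of them a member, 12 and 3 with probes well above background on all 9 arrays, and 41 and 130 with no filter on dim probes. They were 31 and 17 with rows 517 to 532 left out, 89 and 49 with a UV Dose 1 limit of 0.8, 22 and 8 with 1.2, 30 and 7 with a UV Dose 2 limit of 0.3, and 58 and 35 with 0.7. Leaving out outlier flags or using the deposited series table gave 52 and 23. Leaving out single arrays gave 49 to 322 rises and 17 to 67 falls. The causes of these changes were not tested, beyond what each setting does by construction.

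For UV Dose 1 against Control, 17 members were called, against 1 with normexp, 8 with probes well above background on all 9 arrays, 10 with no filter, 0 with the slide as a fixed block, 29 with the replicate block and 1 to 11 with single arrays left out. Over all probes, 974 became 1464 with SVCD, 14 with the fixed slide block, 307 with only the arrays compared, 1 with the methods' t-test (4184 before adjustment) and 319 to 771 with single arrays left out. The share called higher was 38.1%, against 23.0% with SVCD, 22.1% with no normalization, 13.5% with no filter and 25.2% without Control replicate 2. The replicate block gave 1379 probes, and 0 between the doses, where same-numbered arrays correlated at 0.03 to 0.18 and a pairing is not settled. As the calls over all probes moved with the setting, nothing is read from the member counts under any of them. For normexp, the filters and each left-out array by itself, the number over all probes is not given beside the member count.

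UV Dose 1 against UV Dose 2 called 0 probes, 6 with normexp, 6 with the trended and robust prior, 2 with the fixed slide block, and 0 to 1 with single arrays left out, and 0 members throughout. Against the mean of both groups, 6 became 56 with SVCD, 31 with Quantile, 0 with 75th percentile scaling, 22 with no normalization, 117 with normexp, 51 with probes well above background, 23 with rows 517 to 532 left out, 26 with the random slide block, 78 with the trended prior, 0 with the replicate block, the fixed slide block or the t-test, and 0 to 2 with single arrays left out. Restricting that contrast to the groups compared leaves all 9 arrays, so it was not run. UV Dose 2 against Control called 1197, and 617 with no filter, 486 with the random slide block, and 1841 with the trended prior. It called 511 with only the arrays compared, 142 with the t-test, and 372 to 1106 with single arrays left out. The fixed slide block called 0, but no slide held both groups. That block compares them only through the UV Dose 1 arrays, so nothing is read from its 0.

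Normexp moved the sizes of the 4 named probes by over 1.5 times. The UV Dose 1 minus Control difference was 0.29 with normexp and 2.20 with median scaling for GYUW2K402IR7O4, 0.27 and 1.07 for GYUW2K401B7KXX, -0.11 and -2.03 for GYUW2K402HBWRK, and -0.58 and -1.37 for GYUW2K401EUFCE. The rule chose these probes by their direction, so the direction under other settings is not given as support. The 8 probes detected at UV Dose 1 only became 10 with the weaker detection flag and 7 with rows 517 to 532 left out. Most members are dim, and the part of this in the smaller sizes with normexp was not tested.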
